A study of Mus musculus with 6 samples.

Results

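The epithelial-mesenchymal transition (EMT) factors Snai1, Snai2, Twist1, Twist2, Zeb1, Zeb2 and Prrx1, together with the intermediate filament gene Vim, were followed across 6 RNA-seq libraries from the pubertal mouse mammary gland. These 8 genes were taken by symbol from the count files, which list 55291 symbols, and all 8 were found. The cells came from female mice 6 weeks of age, all of genotype Adgra3-lz/+, which carry a lacZ reporter in the gene for the receptor Gpr125 (Adgra3). Cells bearing CD31, CD45 or Ter119 were set aside (the study's methods also list an antibody to the fibroblast surface protein CD140a, or Pdgfra, among the stains), and the remaining cells with a high surface level of the integrin CD49f were sorted by whether they turned over FDG, a fluorogenic substrate of the β-galactosidase that lacZ encodes. FDG+ cells from the part of the gland that holds the terminal end buds, the growing ductal tips, were labelled TEB-distal Gpr125+, and FDG+ cells from the part near the nipple were labelled nipple-proximal Gpr125+. FDG- cells were labelled Gpr125-negative, with no region given. Each group had 2 libraries, and each library was described in the series record as a pool of 5 mice, while the study's methods give a smaller number per preparation. The labels do not say that the pools were independent, so p-values measure the spread between these libraries only.

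Depth ran from 20134890 to 37296640 counted reads per library, and 17401 to 21963 genes had at least 1 count. The library with the fewest genes was Gpr125-negative library 2. The 2 libraries labelled Gpr125-negative resembled each other less than any other pair of libraries did, with a Pearson correlation of log2 values of 0.733, whereas the nipple-proximal pair reached 0.933. Adgra3, the gene whose activity the sort was built on, ran against the labels. It stood at 35.7 and 18.6 CPM (reads scaled to library size) in the libraries labelled Gpr125-negative, 15.0 and 4.83 CPM in the TEB-distal pair, and 19.2 and 12.3 CPM in the nipple-proximal pair. Its log2 fold change was -1.45 ± 0.92 (SE) for TEB-distal against Gpr125-negative and -0.78 ± 0.90 for nipple-proximal against Gpr125-negative. The reporter allele, which the mice of all libraries carried, alters the Adgra3 transcript, and these counts do not tell it from the wild-type allele. Whether the allele, the sort or the labelling lay behind the Adgra3 values was not tested. Because Adgra3 ran against the labels, every direction below is given against the libraries labelled Gpr125-negative.

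EMT is the program in which epithelial cells loosen their junctions and take on properties of mesenchymal cells. Snail (Snai1) and Slug (Snai2) are zinc finger repressors that bind the E-box CAGGTG, above all in the E-cadherin gene. Zeb1 and Zeb2 are zinc finger and homeodomain repressors of epithelial genes, Twist1 and Twist2 are basic helix-loop-helix factors that bind CANNTG, and Prrx1 is a paired-type homeodomain factor of embryonic mesenchyme. Vimentin is the main intermediate filament of mesenchymal cells. In the mammary gland Slug belongs to the basal epithelial layer, while Zeb1, Zeb2, Prrx1 and vimentin are also made by stromal, endothelial or immune cells.

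Positions are on GRCm38 (mm10). From the GENCODE M21 annotation, Twist2 spans 91801461-91848028 and Prrx1 163245119-163313710 on chromosome 1, and Vim 13573927-13582826, Zeb2 44983632-45117395 and Snai1 167538195-167542814 on chromosome 2. Twist1 spans 33957671-33959829 on chromosome 12 and Snai2 14705852-14709385 on chromosome 16. Counting ignored strand, and the antisense gene Gm29100 covers 46.5% of the exon bases of Twist2, so reads there could not be assigned to either gene. Gm29100 itself was listed at 0 in all 6 libraries. The antisense gene Zeb2os shares 3.27% of the Zeb2 exon bases and had 0 to 2 counts per library. Gm10125, which shares 1.93% of the Zeb1 exon bases, had 46 counts in Gpr125-negative library 1 and 0 elsewhere.

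RefSeq promoter windows (GRCm38.p6, 250 bases before to 50 after a start) were at hand for 6 of the 8 genes, namely Snai1, Twist1, Twist2, Zeb2, Prrx1 and Vim. Since the factors bind E-boxes, the windows were searched on both strands for CANNTG, which includes CAGGTG, and for the core promoter words TATAAA and CCAAT. Of all 32851 RefSeq windows, 72.3% held CANNTG, 20.2% CAGGTG, 13.6% TATAAA and 37.4% CCAAT. Among these genes the Snai1 window held 1 CANNTG match, which reads CACCTG and so is CAGGTG on the other strand, 126 bases before the start (position -126). The windows of Twist1, Twist2, Prrx1, Vim and all 4 starts of Zeb2 held none. The stretches before the annotated exons are given for Snai1, the gene with the E-box, and for Zeb2 and Prrx1, the 2 genes whose levels differed most between the libraries labelled Gpr125-negative among those with reads in both. Capitals mark CANNTG and CCAAT matches. They are chr2:167537945-167538194 (plus strand), chr2:45117443-45117692 (minus strand, the outermost Zeb2 start) and chr1:163313711-163313900 (minus strand).
Snai1: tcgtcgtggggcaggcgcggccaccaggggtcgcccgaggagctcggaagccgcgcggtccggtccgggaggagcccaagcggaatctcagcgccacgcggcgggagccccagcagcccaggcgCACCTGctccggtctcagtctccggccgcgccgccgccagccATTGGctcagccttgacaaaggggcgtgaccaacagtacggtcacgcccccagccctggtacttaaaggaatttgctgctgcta
Zeb2: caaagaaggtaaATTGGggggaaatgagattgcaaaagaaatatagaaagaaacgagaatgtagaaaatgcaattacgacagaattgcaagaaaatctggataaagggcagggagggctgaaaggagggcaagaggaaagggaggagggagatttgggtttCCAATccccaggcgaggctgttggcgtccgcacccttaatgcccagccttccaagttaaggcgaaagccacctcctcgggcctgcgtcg
Prrx1: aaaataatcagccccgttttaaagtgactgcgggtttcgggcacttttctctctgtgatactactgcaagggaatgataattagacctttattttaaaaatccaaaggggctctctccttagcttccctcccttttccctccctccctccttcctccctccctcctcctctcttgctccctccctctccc
The GC content of the whole windows was 70.0% for Snai1, 49.3% for Zeb2 at this start and 47.7% for Prrx1, against a median of 52.7% over all windows. These matches describe the letters of the windows and were not tied to binding.

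Slug was well detected in every library. Snai2 reads amounted to 19.3 and 55.6 CPM in the libraries labelled Gpr125-negative, 57.7 and 53.4 CPM in the TEB-distal pair, and 35.7 and 49.1 CPM in the nipple-proximal pair. Both TEB-distal libraries thus lay above both nipple-proximal libraries, and the Gpr125-negative pair overlapped with both groups. Snai1 was low everywhere, at 1.53 and 1.19 CPM in Gpr125-negative, 0.546 and 0.851 CPM in TEB-distal, and 1.72 and 0.942 CPM in nipple-proximal cells. These levels rest on 14 to 71 reads per library. The TEB-distal pair was lowest and did not overlap with either of the other groups.

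The Zeb genes differed from each other. Zeb1, which spans 5591860-5775467 on chromosome 18, stood at 7.85 and 26.4 CPM in the libraries labelled Gpr125-negative, 5.85 and 0.987 CPM in TEB-distal, and 13.8 and 3.44 CPM in nipple-proximal cells. Both TEB-distal values were below both Gpr125-negative values, while the nipple-proximal pair overlapped with both. Zeb2 was at 1.27 and 42.4 CPM in Gpr125-negative, 0.897 and 1.60 CPM in TEB-distal, and 2.36 and 1.88 CPM in nipple-proximal cells. In 5 of the 6 libraries Zeb2 therefore stayed between 0.897 and 2.36 CPM, and only Gpr125-negative library 2 stood apart, 33.4-fold above library 1 of its own group.

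The Twist genes were near the limit of detection. Twist1 had 49 and 0 reads in Gpr125-negative cells, 6 and 9 in TEB-distal, and 7 and 5 in nipple-proximal cells. Twist2 had 0 and 0 reads in Gpr125-negative, 34 and 0 in TEB-distal, and 5 and 0 in nipple-proximal cells. A count of 0 still allows up to 3 reads, which is 0.0646 to 0.147 CPM depending on the library and covers counting error only. Taking that floor per library for Twist2 in the Gpr125-negative pair, its TEB-distal mean was at least 7.98-fold higher, a bound that rests on TEB-distal library 1 alone. Neither gene passed the filter on low counts.

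Among the genes with reads in every library, Prrx1 varied most within the Gpr125-negative and TEB-distal pairs. It measured 0.667 and 41.8 CPM in the libraries labelled Gpr125-negative, 18.0 and 0.0681 CPM in TEB-distal, and 5.99 and 13.7 CPM in nipple-proximal cells. The low TEB-distal value stood for 2 reads, and the Gpr125-negative pair differed 62.6-fold. Vim reads amounted to 41.9 and 199.5 CPM in Gpr125-negative, 80.9 and 183.1 CPM in TEB-distal, and 125.4 and 75.7 CPM in nipple-proximal cells. All 3 groups overlapped for both genes.

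**Figure D1:**
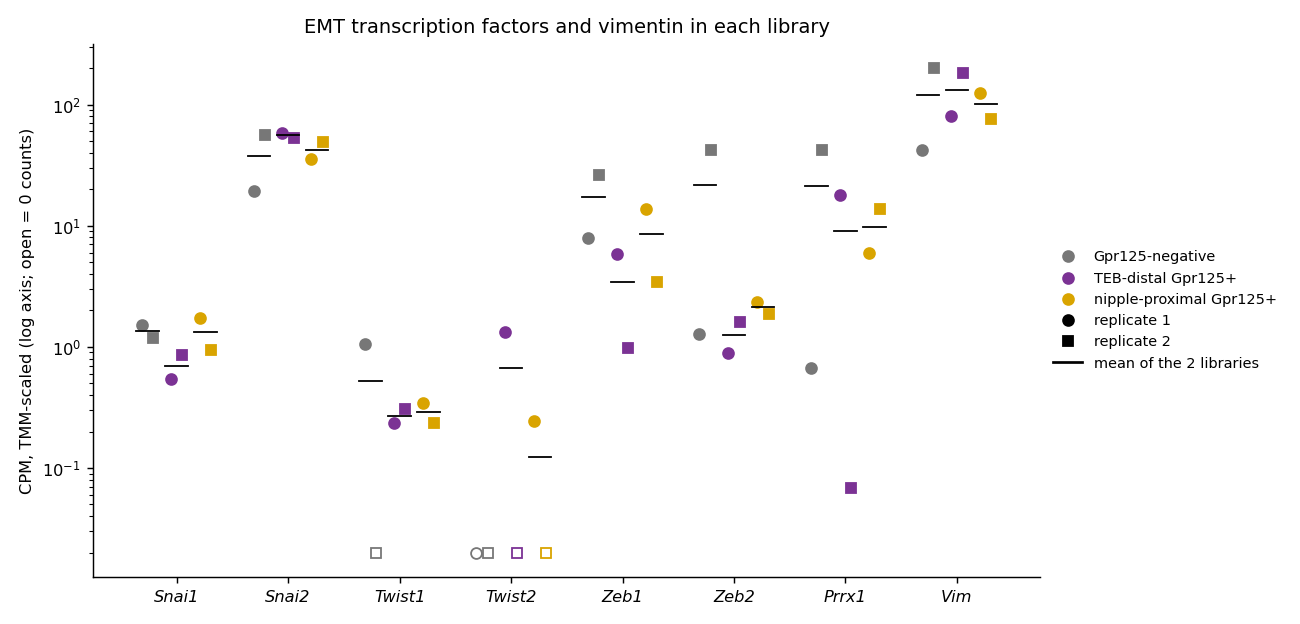
CPM of each gene in each library on a log axis, with circles for replicate 1, squares for replicate 2, bars for the mean of the 2 libraries and open symbols for 0 counts. Zeb2 sits between 0.897 and 2.36 CPM in all libraries but Gpr125-negative library 2, where it reaches 42.4 CPM, and Prrx1 spreads from 0.667 to 41.8 CPM within Gpr125-negative and from 0.0681 to 18.0 CPM within TEB-distal cells.

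Levels were compared between genes only per kilobase of merged exons. On that scale the median over the 6 libraries was 25.4 CPM per kilobase for Snai2 and 21.8 for Vim, then 0.888 for Prrx1, 0.667 for Zeb1, 0.656 for Snai1, 0.166 for Twist1, 0.0873 for Zeb2 and 0 for Twist2. Snai2 ranged from 9.54 to 28.6 and Vim from 8.83 to 42.1 CPM per kilobase, so their order was not settled by these libraries. Prrx1 reached at most 3.77 and Zeb1 at most 2.57 CPM per kilobase, and the ranges of Snai2 and Vim did not overlap with those of any other gene of the set. From Prrx1 downward, each gene overlapped with its neighbour in the order.

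Differences between groups were tested with the quasi-likelihood test of edgeR on all 6 libraries, over the 17268 genes that passed the filter on low counts. Calls needed a Benjamini-Hochberg adjusted p under 0.1 together with a 2-fold change or more. Snai1, Snai2, Zeb1, Zeb2, Prrx1 and Vim passed the filter, and 0 of the 6 were called in any of the 3 comparisons. The background was the same, since 0% of all genes tested were called in each comparison (0 genes). At an unadjusted p under 0.05, 1045 genes (6.05%), 613 genes (3.55%) and 381 genes (2.21%) differed for TEB-distal against Gpr125-negative, nipple-proximal against Gpr125-negative and TEB-distal against nipple-proximal, in that order. Of the 6 members, 1, 0 and 0 did. The coefficient of variation shared by all genes was 0.967, a large spread for replicate libraries. With 2 libraries per group an exact two-sided permutation test of a single gene cannot go below p = 0.333.

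The first comparison asked how Gpr125+ cells of the ductal tips differ from cells labelled Gpr125-negative. Snai2 was at a mean of 55.5 against 37.4 CPM and Snai1 at a mean of 0.699 against 1.36 CPM. The log2 fold change of Snai2 was 0.57 ± 0.72 (SE, adjusted p = 1 by edgeR) and that of Snai1 -0.95 ± 1.63 (adjusted p = 1 by edgeR). Zeb1 had a log2 fold change of -2.32 ± 1.37, with a 95% interval from -5.51 to 0.87. Zeb2 had the largest difference of the set, -4.12 ± 1.71 on the log2 scale, with a 95% interval from -8.08 to -0.16. Its unadjusted edgeR p was 0.0433 and its adjusted p 0.815. Prrx1 was at -1.23 ± 2.13 and Vim at 0.13 ± 0.88, and the groups overlapped for both. For Vim, the filament protein by which mesenchymal cells are commonly recognised, the 95% interval of the log2 difference ran from -1.92 to 2.18. For Snai1 and Zeb1 the TEB-distal pair lay wholly below the Gpr125-negative pair, a pattern shown by 10% of all genes tested. No member showed the opposite, which 14% of genes did.

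The second comparison set Gpr125+ cells from near the nipple against the same Gpr125-negative libraries, which the first comparison also used. Zeb2 again had the lowest log2 fold change, -3.36 ± 1.65, with an unadjusted edgeR p of 0.077 and an adjusted p of 1. Prrx1 stood at -1.11 ± 2.13 and Zeb1 at -0.99 ± 1.32. The Snail factors were close to 0, with Snai2 at 0.18 ± 0.72 and Snai1 at -0.03 ± 1.62, and Vim was at -0.26 ± 0.88. Every one of these 95% intervals included 0. In this comparison no member had groups that did not overlap, against 19.9% of all genes with both nipple-proximal libraries higher and 10.8% with both lower.

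The third comparison was between the 2 regions within Gpr125+ cells. Both TEB-distal libraries had more Snai2 than both nipple-proximal libraries, a pattern seen in 15.2% of all genes, and less Snai1 and Zeb2, a pattern seen in 18.3%. The sizes were small beside the spread. Snai2 had a log2 fold change of 0.39 ± 0.72, Snai1 of -0.92 ± 1.64 and Zeb2 of -0.76 ± 1.52. Zeb1 was at -1.33 ± 1.33, Vim at 0.39 ± 0.88 and Prrx1 at -0.12 ± 2.10. The adjusted p by edgeR was 1 for each of the 6 genes. The 95% intervals were wide, from -1.28 to 2.06 for Snai2 and from -5.00 to 4.76 for Prrx1, so differences of several fold in either direction were not excluded at this depth and number of libraries.

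**Figure D2:**
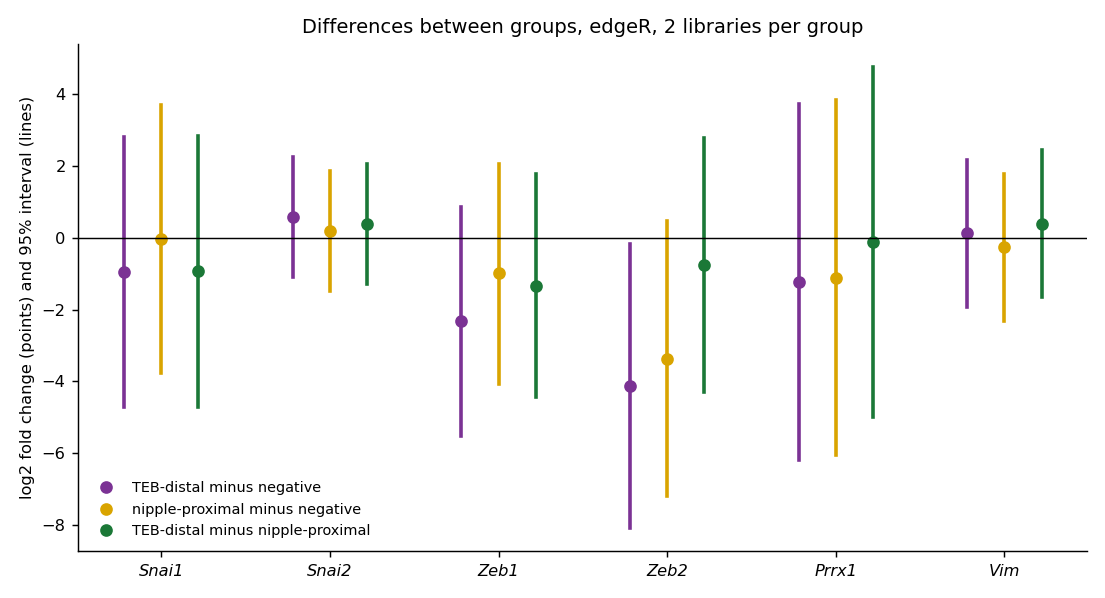
Log2 fold change (points) and 95% interval (lines) of the 6 genes that passed the filter, for the 3 comparisons. Of 18 intervals, that of Zeb2 for TEB-distal minus Gpr125-negative, from -8.08 to -0.16, is alone in leaving out 0, and its adjusted p was 0.815.

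The Zeb2 difference depended on Gpr125-negative library 2. When that library was left out, the log2 fold change of Zeb2 was -0.03 for TEB-distal and 0.74 for nipple-proximal against Gpr125-negative library 1. Without Gpr125-negative library 1 it was -5.20 for TEB-distal and -4.45 for the nipple-proximal pair, with edgeR adjusted p of 0.0503 and 0.0839, and both were then called. In those fits, where the lone Gpr125-negative library is assumed to vary like the other groups, 3.85% and 1.73% of all genes were called. DESeq2 on all 6 libraries also called Zeb2 lower in TEB-distal cells, with a log2 fold change of -4.22 and an adjusted p of 0.0668, in a comparison in which it called 5.43% of genes. DESeq2 called no member in either of the other comparisons, and none in any comparison when fitted to the 4 libraries compared. Zeb2 was the single member called under any setting tried.

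Prrx1 turned with single libraries. For TEB-distal against Gpr125-negative its log2 fold change ran from -8.25 without TEB-distal library 1 to 3.75 without Gpr125-negative library 2. For nipple-proximal against Gpr125-negative it ran from -2.23 without Gpr125-negative library 1 to 3.88 without library 2. For TEB-distal against nipple-proximal it ran from -7.01 without TEB-distal library 1 to 0.86 without TEB-distal library 2. Vim changed sign in the same manner, from -0.72 without Gpr125-negative library 1 to 1.65 without library 2 for TEB-distal, and from -1.12 to 1.27 for nipple-proximal cells. Snai1 and Zeb1 ranged from -1.31 to -0.68 and from -4.14 to -1.21 for TEB-distal against Gpr125-negative in such fits. Snai2 ranged from 0.17 to 0.62 for TEB-distal against nipple-proximal cells. In these comparisons the groups did not overlap for these genes, so leaving out 1 library could hardly change the sign. The kept sign therefore adds nothing to the lack of overlap.

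**Figure D3:**
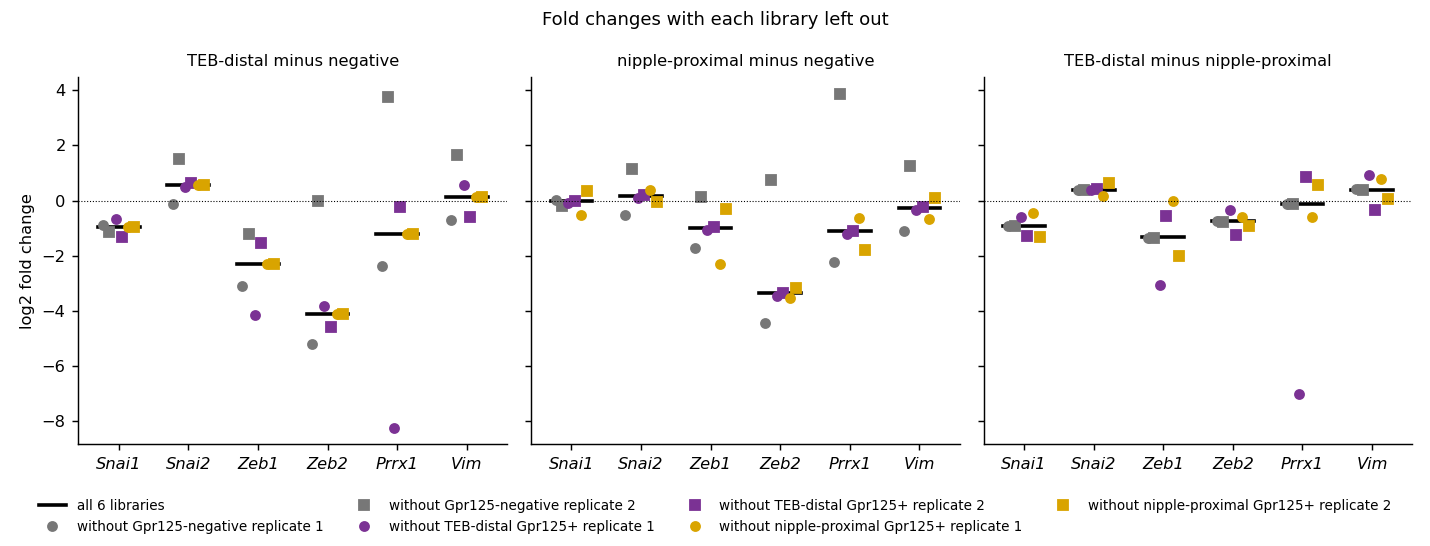
Log2 fold change of each gene with all 6 libraries (black bars) and after dropping each library singly (points). Leaving out Gpr125-negative library 2 (grey squares) moves Zeb2 from -4.12 to -0.03 in the left panel and from -3.36 to 0.74 in the middle panel, and moves Prrx1 to 3.75 and 3.88.

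The levels of marker genes of other cell types were read beside these values, since the Zeb genes, Prrx1 and Vim are also made outside the epithelium. In bulk libraries fewer cells of a type and less RNA per cell cannot be told apart. All 12 basal markers (keratins, smooth muscle genes and Trp63) were found in every library, and their summed level was 3393 and 3554 CPM in Gpr125-negative, 4017 and 23030 CPM in TEB-distal, and 9449 and 14950 CPM in nipple-proximal cells. For TEB-distal against Gpr125-negative, 10 of the 12 had a log2 fold change above 0. The 2 below 0 were Trp63, at -2.27, and Krt5, at -0.09. Trp63 was at 58.1 and 8.40 CPM in Gpr125-negative, 7.33 and 6.47 CPM in TEB-distal, and 17.6 and 9.23 CPM in nipple-proximal cells. For nipple-proximal against Gpr125-negative, 11 of the 12 were above 0. The sums of the 12 luminal markers ranged from 655 to 2339 CPM, with the lowest in Gpr125-negative library 2. Single luminal markers differed more within the TEB-distal pair, where Prlr had 2983 and 0 reads and Esr1 819 and 2 reads. By CPM, Krt18, Areg, Kit, Csn3 and Wfdc18 were also higher in TEB-distal library 1. Krt8, Krt19, Pgr, Cited1 and Elf5 were higher in TEB-distal library 2. The 12 endothelial markers summed to 1365 and 843 CPM in the libraries labelled Gpr125-negative, 21.8 and 25.1 CPM in TEB-distal, and 245 and 29.7 CPM in nipple-proximal cells, although CD31 had been used to exclude endothelial cells. At most 1 of the 12 was at 0 in any library. The 6 adipocyte markers summed to 672 and 631 CPM in Gpr125-negative, nearly all of it from Fabp4, a gene also made by capillary endothelium, and to 2.54 to 24.8 CPM in the other libraries.

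The endothelial and adipocyte sums were high in both Gpr125-negative libraries, where Zeb2 was at 1.27 and 42.4 CPM. Members of the endothelial list differed between these libraries. Pecam1, Kdr, Emcn and Tie1 were higher in library 2, and the other members, Cdh5, Tek, Egfl7, Esam, Cldn5, Vwf, Eng and Flt1, were higher in library 1. Other lists were higher in library 2 than in library 1 of this group, as were Zeb2, Prrx1 and Vim. The 10 fibroblast markers summed to 47.6 and 154 CPM, the 8 pericyte markers to 12.7 and 27.9 CPM and the 6 Schwann cell markers to 176 and 268 CPM. In the TEB-distal pair the fibroblast sum was 123 and 268 CPM, the pericyte sum 5.26 and 1.67 CPM and the Schwann sum 40.6 and 85.7 CPM. In the nipple-proximal pair these sums were 82.3 and 62.4, 3.88 and 23.8, and 147 and 106 CPM. The 12 leukocyte markers summed to 81.1 and 75.4 CPM in Gpr125-negative, 147 and 308 CPM in TEB-distal, and 196 and 114 CPM in nipple-proximal cells, and the 6 erythroid markers to at most 1.32 CPM anywhere. Most of the leukocyte sum was Cd68, a lysosomal gene typical of macrophages, at 71.1 and 43.3, 118.9 and 290.0, and 178.1 and 99.2 CPM. Ptprc, which encodes CD45, ranged from 1.98 to 9.24 CPM. The receptor gene Csf1r was at 0.925 and 17.1, 0.897 and 0.885, and 5.01 and 1.55 CPM. Of the tested leukocyte markers, Csf1r, Lyz2, Itgam and Ptprc were higher in Gpr125-negative library 2 than in library 1. Cd68, Cd79a, Adgre1 and Tyrobp were lower there. Pdgfra, the fibroblast marker named above, had 123 and 1 reads in Gpr125-negative, 173 and 121 in TEB-distal, and 1 and 17 in nipple-proximal cells. Trp63, Krt5, Prlr, Esr1, Cd68, Ptprc, Csf1r and Pdgfra were singled out after their values were seen. Whether other cell types contributed to the levels of Zeb2, Prrx1 or Vim was not tested.

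**Figure D4:**
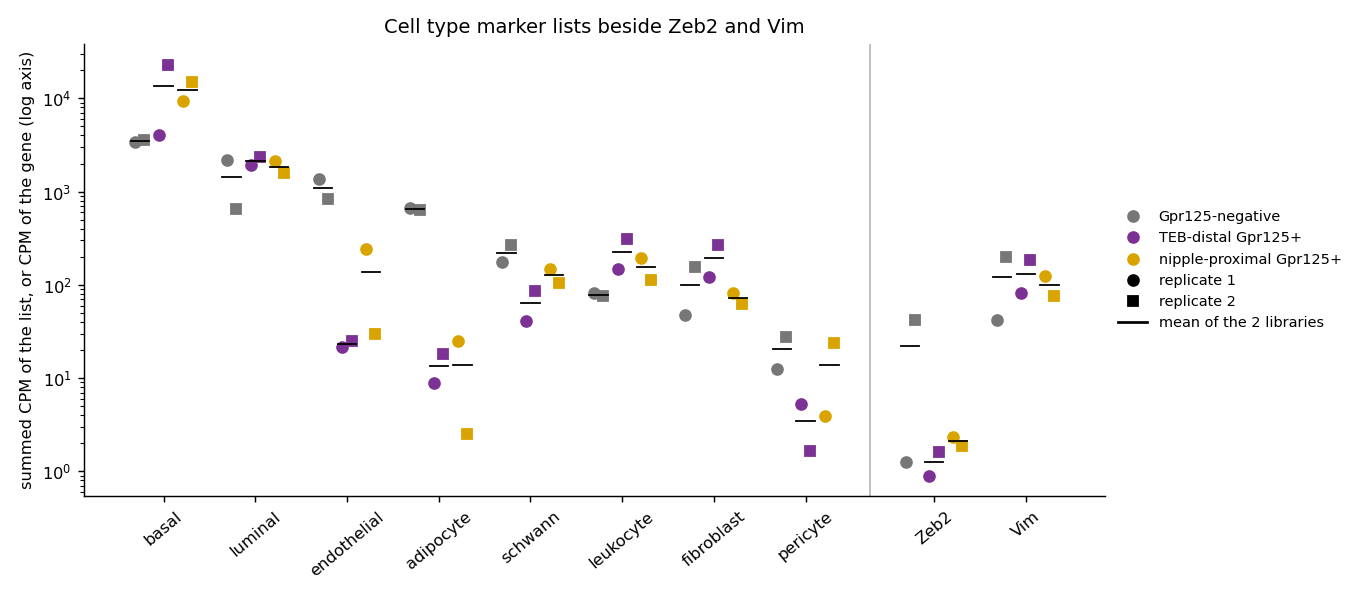
Summed CPM of 8 cell type marker lists in each library, with the CPM of Zeb2 and Vim at the right, on a log axis. The endothelial and adipocyte sums are high in both Gpr125-negative libraries, at 843 to 1365 and 631 to 672 CPM, and Zeb2 is at 1.27 and 42.4 CPM there.

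The genes whose log2 levels followed each member most closely over the 6 libraries were taken from the genes with an average of at least 2 on the log2 CPM scale, which were 10645 for Snai1 and, leaving out the member itself, 10644 for the others. With 6 points that share 3 groups and their depth, these Pearson correlations only describe the libraries. Vim was followed by Dcn (0.995), which encodes the fibroblast proteoglycan decorin, and by Nt5dc2 (0.987) and Nog (0.979), which encodes the BMP antagonist noggin. Zeb2 was followed by Sprtn (0.990), Simc1 (0.989) and Gm45809 (0.987), and Zeb1 by Gnb4 (0.988), Nudt12 (0.987) and Chchd1 (0.980). Prrx1 was followed by Casc4 (0.999), Sp4 (0.998) and Yes1 (0.996), Snai2 by Usp38 (0.998), Tspyl4 (0.998) and Chka (0.994), and Snai1 by Crcp (0.988), Pdcd7 (0.984) and Fam102a (0.981). Among the members themselves the highest correlation was 0.699, for Zeb1 and Prrx1, followed by 0.690 for Snai2 and Vim. The lowest was -0.695, for Snai1 and Snai2.

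Other transcription factors tied to EMT were next examined, as a list of 14 genes of which 11 passed the filter. None was called, and the median log2 fold change was 0.07, 0 and -0.14 in the 3 comparisons in turn, beside 0.03, 0 and 0.06 over all genes tested. Leaving out single libraries moved these medians, from -0.85 without TEB-distal library 2 to 0.82 without Gpr125-negative library 1, from -0.60 without Gpr125-negative library 2 to 0, and from -0.31 without TEB-distal library 2 to 0.13 without TEB-distal library 1. Foxc2, a forkhead factor of mesenchyme and lymphatic vessels, had 40 and 206 reads in Gpr125-negative, 0 and 0 in TEB-distal, and 14 and 0 in nipple-proximal cells. Against a floor of 3 reads per library its TEB-distal level was at least 35.8-fold lower than in Gpr125-negative cells (edgeR adjusted p = 0.803) and at least 3.14-fold lower than in nipple-proximal cells, a bound that rests on nipple-proximal library 1 alone. Klf8, a Krüppel-like repressor, had 0 and 1 reads in Gpr125-negative, 0 and 40 in TEB-distal, and 42 and 32 in nipple-proximal cells. Prrx2, the paralog of Prrx1, had 29 and 0 reads in Gpr125-negative, 0 and 66 in TEB-distal, and 0 and 0 in nipple-proximal cells. Tcf4, a bHLH partner of Twist, was at 58.9 and 69.5 CPM in Gpr125-negative, 14.7 and 42.3 CPM in TEB-distal, and 51.7 and 28.9 CPM in nipple-proximal cells, and had a log2 fold change of -1.17 ± 0.75 for TEB-distal. Sox9, a factor of luminal and basal progenitors, had the second highest value for nipple-proximal against Gpr125-negative, 0.36 ± 0.71.

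Epithelial genes were represented by 16 genes, all of which passed the filter. They include Snail and Zeb targets such as Cdh1, but also the epithelial transcription factor genes Grhl2, Ovol1 and Ovol2. None was called, and the medians were 0.24, 0.30 and 0.01. Without TEB-distal library 1 the median was -0.47 for TEB-distal against Gpr125-negative and -0.72 against nipple-proximal cells, and without library 2 it was 0.53 in both. Without Gpr125-negative library 1 it was 0.79 for TEB-distal and 0.58 for nipple-proximal against Gpr125-negative, and without library 2 it was -0.02 and 0.21. Cdh1, which encodes E-cadherin, was at 39.4 and 71.4 CPM in Gpr125-negative, 248 and 45.9 CPM in TEB-distal, and 107 and 198 CPM in nipple-proximal cells. E-cadherin transcripts were thus higher in both nipple-proximal libraries than in both Gpr125-negative libraries, while the TEB-distal pair overlapped with both. The desmosomal gene Dsp had a log2 fold change of 1.77 ± 0.85 for TEB-distal and 1.74 ± 0.85 for nipple-proximal against Gpr125-negative, and did not overlap in either (edgeR adjusted p of 0.848 and 1). Cldn3, a tight junction claudin, was at 88.2 and 2.24 CPM in Gpr125-negative, 23.7 and 13.0 CPM in TEB-distal, and 7.56 and 2.45 CPM in nipple-proximal cells. Tjp3, a tight junction scaffold, had 305 and 15, 158 and 0, and 15 and 3 reads in the same order, and occludin (Ocln) 208 and 0, 205 and 0, and 116 and 166. Cdh3, which encodes the basal P-cadherin, was at 37.3 and 29.2, 22.7 and 34.9, and 56.4 and 75.2 CPM. Crb3, a polarity gene, had a log2 fold change of -2.03 ± 0.74 for TEB-distal against nipple-proximal cells (edgeR adjusted p = 1).

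Among 17 mesenchymal genes induced in EMT, 15 passed the filter and Fap was listed at 0 in all 6 libraries. None was called, and the medians were 1.60, 0.31 and 1.14. In 7 of the 15 both TEB-distal libraries were above both Gpr125-negative libraries, against 14% of all genes, and in 7 of the 15 both were above both nipple-proximal libraries, against 15.2%. The summed fibroblast markers, 2 of which (Col1a1 and Col3a1) also stand in this list, were 123 and 268 CPM in TEB-distal cells, and their part in these values was not tested. Fn1, which encodes the matrix protein fibronectin, was at 32.1 and 11.6 CPM in Gpr125-negative, 168 and 174 CPM in TEB-distal, and 17.2 and 5.04 CPM in nipple-proximal cells. Its log2 fold change was 2.97 ± 0.88 for TEB-distal against Gpr125-negative (edgeR adjusted p = 0.803) and 3.94 ± 0.92 against nipple-proximal cells (edgeR adjusted p = 1). Col3a1, a fibrillar collagen that also belongs to the fibroblast list, had 61 and 1 reads in Gpr125-negative, 202 and 203 in TEB-distal, and 14 and 55 in nipple-proximal cells. Lox, a collagen crosslinking enzyme, had 5 and 674, 1 and 6, and 60 and 86 reads, and Loxl2, of the same family, 188 and 0, 164 and 211, and 36 and 21. Mmp3, a stromal protease, was at 130 and 200 CPM in Gpr125-negative, 165 and 190 CPM in TEB-distal, and 42.1 and 51.2 CPM in nipple-proximal cells, with a log2 fold change of -1.82 ± 0.65 for nipple-proximal against Gpr125-negative (edgeR adjusted p = 1). Cdh2, which encodes N-cadherin, was at 3.38 and 3.56, 11.8 and 9.23, and 13.3 and 7.67 CPM. The matrix gene Tgfbi was at 6.95 and 7.42, 4.91 and 3.95, and 9.43 and 5.18 CPM. For TEB-distal against Gpr125-negative the median of the list was 0.74 without Gpr125-negative library 2 and 0.82 without TEB-distal library 2. Without Gpr125-negative library 1 it was 1.47, and 3 of the 15 were then called, beside 3.85% of all genes. For TEB-distal against nipple-proximal cells it was 0.33 without TEB-distal library 2 and 0.70 without nipple-proximal library 1. For nipple-proximal against Gpr125-negative it ran from -0.16 without nipple-proximal library 1 to 1.24 without Gpr125-negative library 1, where 1 of the 15 was called beside 1.73% of all genes, and was 0.10 without Gpr125-negative library 2.

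Signals that induce the EMT factors were represented by 11 genes of the TGF-β route and the hypoxia factor Hif1a, all 12 were tested and none was called. The medians were -0.09, -0.40 and 0.09, and turned in the same order to 0.24 without TEB-distal library 2, 0.17 without Gpr125-negative library 2 and -0.19 without TEB-distal library 2. The ligand gene Tgfb1 was at 5.16 and 12.5 CPM in Gpr125-negative, 1.48 and 1.29 CPM in TEB-distal, and 1.96 and 0.753 CPM in nipple-proximal cells, so that both Gpr125+ groups lay below the Gpr125-negative pair. Its log2 fold change was -2.67 ± 1.50 for TEB-distal and -2.70 ± 1.51 for the nipple-proximal pair. Tgfb2 was at 9.68 and 20.8, 5.46 and 11.4, and 3.05 and 8.85 CPM, and Tgfb3 at 13.9 and 4.40, 2.53 and 19.0, and 5.35 and 7.58 CPM. The co-receptor gene Tgfbr3 was at 87.1 and 60.5 CPM in Gpr125-negative, 26.1 and 20.8 CPM in TEB-distal, and 46.1 and 33.6 CPM in nipple-proximal cells, with a log2 fold change of -1.66 ± 0.65 for TEB-distal against Gpr125-negative (edgeR adjusted p = 0.803). Smad7, the inhibitory Smad, had log2 fold changes of 1.25 ± 0.72 and 1.11 ± 0.71 against Gpr125-negative for TEB-distal and nipple-proximal cells, and the signal transducer Smad3 of 0.95 ± 1.03 and 1.20 ± 1.03. Ltbp1, which binds latent TGF-β, was at 1.51 ± 0.86 and Hif1a at -0.85 ± 0.87 for TEB-distal against nipple-proximal cells.

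Vimentin was finally set beside the other intermediate filaments, 11 genes that were all tested and of which none was called. The medians were 1.04, 0.83 and -0.28. Desmin (Des), the muscle filament gene and also a pericyte marker, had 128 and 103 reads in Gpr125-negative, 0 and 0 in TEB-distal, and 20 and 22 in nipple-proximal cells. Its TEB-distal level was at least 28.5-fold lower than in Gpr125-negative cells (edgeR adjusted p = 0.803) and at least 9.21-fold lower than in nipple-proximal cells. The basal keratin Krt17 was at 678 and 1201 CPM in Gpr125-negative, 835 and 5964 CPM in TEB-distal, and 2980 and 5271 CPM in nipple-proximal cells. Krt15, a keratin of epithelial progenitors, had 14 and 1066, 337 and 6200, and 342 and 6746 reads, so that library 2 was the higher of each pair. The luminal keratin Krt18 was at -0.21 ± 0.89 for TEB-distal against Gpr125-negative and its partner Krt8 at 0.37 ± 0.78 for TEB-distal against nipple-proximal cells. The lamin gene Lmna was at 0.25 ± 0.85 for nipple-proximal against Gpr125-negative and synemin (Synm), a partner of vimentin and desmin, at 0.45 ± 1.20 for TEB-distal against nipple-proximal cells. The median of this list for TEB-distal against Gpr125-negative was -0.18 without TEB-distal library 2, 1.62 without TEB-distal library 1 and 0.44 without Gpr125-negative library 2. For TEB-distal against nipple-proximal cells it was -1 without TEB-distal library 2, with 0 of 11 genes above 0, 0.49 without TEB-distal library 1, with 9 above 0, and 0.13 without nipple-proximal library 2. For nipple-proximal against Gpr125-negative it was 0.12 without Gpr125-negative library 2 and 1.54 without Gpr125-negative library 1.

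**Figure D5:**
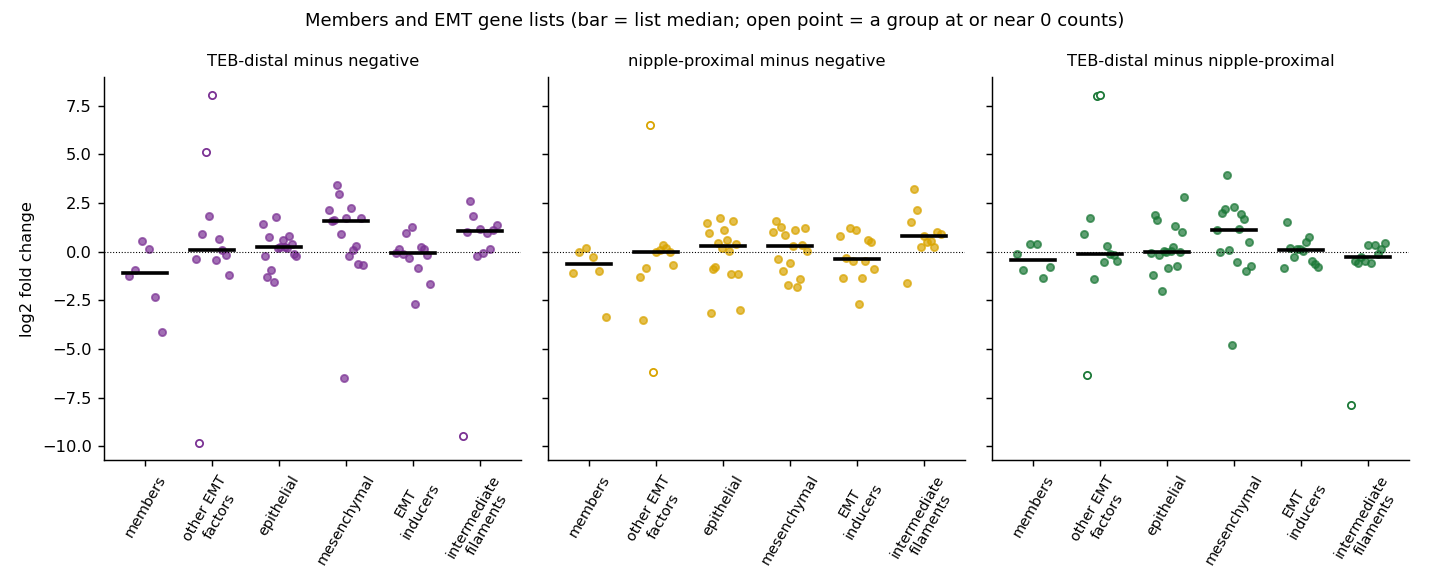
Log2 fold change of each tested gene of the members and of the 5 EMT gene lists in the 3 comparisons, with black bars for list medians. Open points are genes with a group at or near 0 counts, whose fitted value depends on the default prior count of the edgeR fit. The mesenchymal list has medians of 1.60 and 1.14 for TEB-distal against Gpr125-negative and against nipple-proximal cells, which are 0.82 and 0.33 without TEB-distal library 2.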

How the data were processed

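RNA was sequenced in 6 libraries, 2 from each of 3 sorted mammary cell populations, with a SMART-Seq kit, which carries no molecular identifiers. The authors deposited raw counts of reads per gene, made by STAR alignment to mm10 and HTSeq counting without strand. The STAR version given in the processing notes of the submitters is 2.7.3, the study's methods name an earlier one, and the annotation release is not given in the sources used here. Counts were scaled by TMM and tested with edgeR (version 4.0.16, R version 4.3.3) over the 17268 genes kept by filterByExpr, with 3 groups, robust quasi-likelihood fits and Benjamini-Hochberg adjustment at 0.1 and 2-fold. DESeq2 (version 1.42.0), other filters and leaving out each library were alternatives. CPM values are TMM-scaled. The log2 levels used for correlations add a prior count of 2, while fitted fold changes use the edgeR default. Of the symbols, 96.4% were found in GENCODE M21, which was used for positions and exon lengths. All 8 genes, and by rule the 2 highest and 2 lowest tested genes of each EMT list per comparison and the 3 genes most like each tested member, were named, apart from a few genes that are not reported here. The genes, lists and tests were chosen with earlier results of these data known.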

Additional observations from a re-analysis of the deposited data

Results flagged for a closer look

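The polarity gene Crb3 lay on opposite sides of the libraries labelled Gpr125-negative in the 2 Gpr125+ regions. In those libraries it stood at 27.8 and 23.4 CPM. Both TEB-distal libraries lay below that pair, at 10.2 and 7.22 CPM, and both nipple-proximal libraries above it, at 40.6 and 30.5 CPM. Of all genes tested, 10% had both TEB-distal libraries below the Gpr125-negative pair, and 19.9% had both nipple-proximal libraries above it. Both TEB-distal libraries were below both nipple-proximal libraries in 18.3%. The share of genes with all of these patterns was not counted. The test of the difference between the regions gave -2.03 ± 0.74 on the log2 scale (edgeR adjusted p = 1), so it did not pass the correction over all genes.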

How the results depend on the processing

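With 2 libraries per group and a coefficient of variation of 0.967, precision is limited by the number of libraries. DESeq2 on all 6 libraries called 943, 321 and 129 genes, and on the 4 libraries compared 667, 317 and 360 genes, for TEB-distal against Gpr125-negative, nipple-proximal against Gpr125-negative and TEB-distal against nipple-proximal, where edgeR called 0. Testing all genes with at least 1 count gave 137, 58 and 39. Twist1 and Twist2, tested in that fit as an alternative chosen after seeing the data, had edgeR adjusted p of 0.765 to 1. Leaving out each library in turn gave 0 to 747, 0 to 335 and 0 to 12 genes, with both of the larger counts reached without Gpr125-negative library 1 and the 12 without nipple-proximal library 2. Of the members, DESeq2 on all 6 libraries called 1 for TEB-distal against Gpr125-negative, and leaving out libraries gave 0 to 1, 0 to 1 and 0 to 0. Calls with an adjusted p under 0.05, with DESeq2 size factors, without robust estimation, on 4 libraries by edgeR and with at least 10 counts in 2 libraries stayed at 0.

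Other scalings shifted the median log2 fold change of all genes for nipple-proximal against Gpr125-negative to -0.17 and for TEB-distal against nipple-proximal to 0.19 with DESeq2 size factors. Small member values changed sign with them. Snai2 for nipple-proximal against Gpr125-negative went from 0.18 to -0.017 (DESeq2 on 6 libraries), -0.002 (4 libraries) and -0.022 (size factors). Prrx1 for TEB-distal against nipple-proximal went from -0.12 to 0.041 (DESeq2 on 6 libraries) and 0.032 (size factors). With the replicate number as a block, Prrx1 in that comparison was 0.50 and Vim for nipple-proximal against Gpr125-negative 0.17, and 0 genes were called. Deviations of same-numbered libraries correlated at -0.03, 0.19 and -0.005. With 2 libraries per group this cannot show whether same-numbered libraries shared a pool or a sort, which the labels do not say.

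When libraries were left out, nipple-proximal against Gpr125-negative ranged from -0.52 to 0.36 for Snai1, -0.53 to 1.14 for Snai2, -2.31 to 0.14 for Zeb1, -4.45 to 0.74 for Zeb2, -2.23 to 3.88 for Prrx1 and -1.12 to 1.27 for Vim. TEB-distal against Gpr125-negative ranged from -0.13 to 1.52 for Snai2, -8.25 to 3.75 for Prrx1 and -0.72 to 1.65 for Vim. TEB-distal against nipple-proximal ranged from -7.01 to 0.86 for Prrx1 and -0.33 to 0.93 for Vim. The cause of these changes was not tested.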
